A study of Mus musculus with 20 samples.

Results

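The 40 genes described here encode enzymes of nucleotide synthesis and one-carbon metabolism. They were chosen by their symbols, with earlier results of these data known. All were among the 34937 genes counted, and 39 of them were among the 11754 genes with enough counts to be tested. The remaining member, Adssl1, the muscle form of adenylosuccinate synthase, was at 0 CPM in the median Ehmt2Cntr embryo and at no more than 5.99 CPM in any embryo. CPM is the usual measure of level that divides the count of a gene by the scaled library size of the embryo, and it is not corrected for gene length.

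RNA was measured in single mouse 8C embryos of mixed genetic background at E2.5, 9 Ehmt2Cntr and 10 Ehmt2Mat, all of which looked morphologically normal. Ehmt2Cntr embryos came from Ehmt2F/+ females and Ehmt2Mat embryos from Ehmt2F/- females, and the mothers of both groups carried Zp3-Cre, which is active in growing oocytes and recombines the floxed Ehmt2 allele there, while the sires were Ehmt2+/-. Ehmt2 encodes G9a, a histone methyltransferase that deposits H3K9me2, so that Ehmt2Mat embryos lacked the maternal supply of G9a, and in addition 5 of them were zygotically -/- and 5 were +/-, whereas 6 Ehmt2Cntr embryos were +/+ and 3 were +/-. The labels do not tie embryos to mothers or litters, and effects of a mother cannot be told apart from those of her genotype.

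Total counts lay between 12985149 and 30053248 in Ehmt2Cntr and between 8231646 and 30602434 in Ehmt2Mat embryos, and 12068 to 16142 and 12754 to 16412 genes had at least 1 count. Ehmt2 itself was at 66.6 to 253 CPM in Ehmt2Cntr (median 133) and at 58.7 to 159 CPM in Ehmt2Mat embryos (median 94.9), a log2 fold change of −0.47 (SE 0.24) that did not pass the test (edgeR's quasi-likelihood test, Benjamini-Hochberg adjusted p = 0.233). Counts over whole Ehmt2 exons also include reads outside the deleted part, so they are a weak check of the labels. All 8 cleavage stage markers had medians above 1 CPM in both groups. Of 8 cumulus and granulosa cell markers, Has2, Ptx3, Amh, Foxl2 and Fshr were at 0 in every embryo, and the list summed to at most 0.127 CPM in Ehmt2Cntr and 40.1 CPM in Ehmt2Mat embryos. The 6 oocyte markers summed to between 39.1 and 278.6 CPM in Ehmt2Cntr and between 109.7 and 370.3 CPM in Ehmt2Mat embryos, and the 6 blood cell markers to at most 8.37 and 9.33 CPM. Of the oocyte markers only Oosp1 passed the test, with medians of 8.46 and 63.0 CPM (log2 fold change 2.70, adjusted p = 0.00277), and the other 5 had adjusted p-values of at least 0.449. Of the cleavage stage markers, Tead4 and Tfap2c were higher and Sall4, Klf5 and Klf4 lower in Ehmt2Mat embryos. The part of maternal RNA in the results below was not tested. Y-linked transcripts were above 1 CPM in 5 of 9 Ehmt2Cntr and 9 of 10 Ehmt2Mat embryos. With or without sex as a covariate 7 members passed the test, as did 9.94% and 9.35% of all tested genes.

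As background, cells build purines stepwise on ribose phosphate until the ring of inosine monophosphate (IMP) is closed, and IMP then leads to AMP through adenylosuccinate or to GMP through xanthosine monophosphate. Pyrimidines are built as a ring first, which is joined to ribose phosphate to give UMP and, later, CTP. Ribonucleotide reductase turns ribonucleotides into the deoxynucleotides needed for DNA replication, folates carry the carbon units, largely from serine, that purines and thymidylate require, and the methionine cycle turns such units into S-adenosylmethionine, the methyl donor of histone methyltransferases such as G9a. The cleavage stage embryo divides without growth and starts from stores laid down in the oocyte.

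Of the 39 tested members, 6 (15.4%) were higher and 1 (2.56%) was lower in Ehmt2Mat embryos at an adjusted p under 0.05, and 32 did not pass the test. Of all tested genes, 9.35% passed it, 4.37% higher and 4.98% lower. The members' median log2 fold change was 0.15, against −0.04 over all tested genes, with 23 members above 0 and 16 below, where 47.6% of all tested genes were above 0. DESeq2 called 10 members, 7 higher and 3 lower, and 16.0% of all genes with an adjusted p. With at least 10 counts required in every embryo, edgeR called 9 of 36 members and 19.2% of 7154 genes. The list was chosen with earlier results of these data known, so these shares do not test it. The 6 higher members were Gart and Adsl of purine synthesis, Impdh1, Impdh2 and Gmps of the GMP branch, and Umps of pyrimidine synthesis, and the lower member was Dut, which breaks down dUTP. No member of serine synthesis, the folate cycle or the S-adenosylmethionine cycle passed edgeR's test. CPM of a whole embryo is relative to its library, so it shows neither cell number nor RNA per cell. The paper reports a mild developmental delay after maternal loss of G9a at this stage, and its part in these differences was not tested.

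**Figure D1:**
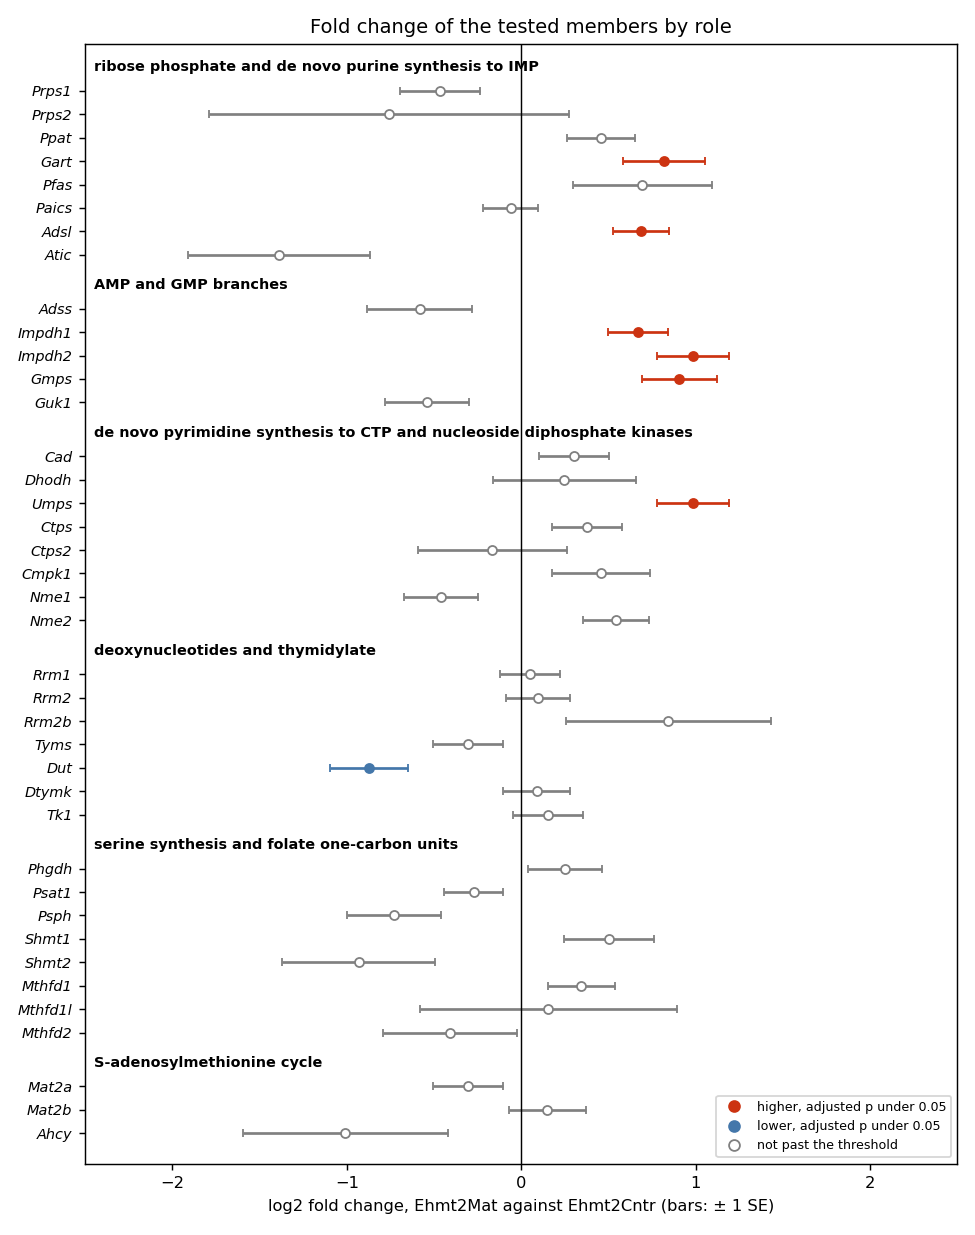
Log2 fold change of each of the 39 tested members in Ehmt2Mat against Ehmt2Cntr embryos, in order of role, with bars of 1 SE on the horizontal axis and filled points for adjusted p under 0.05. Impdh1, Impdh2 and Gmps sit side by side between 0.67 and 0.99, and Dut is the only filled point below 0.

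The calls rested on the comparison of the groups as a whole. When the zygotic genotype was added as a covariate, 0 members and 3 of all 11754 genes passed the test. The log2 fold changes of the 7 members were then 0.88 (SE 0.34) for Impdh2, 0.85 (SE 0.35) for Gmps, 0.71 (SE 0.31) for Umps, 0.65 (SE 0.26) for Adsl, 0.43 (SE 0.38) for Gart, 0.41 (SE 0.26) for Impdh1 and −0.66 (SE 0.34) for Dut. This fit used all 19 embryos. It took the number of functional zygotic Ehmt2 copies as a linear term, with the same slope in both groups. The groups share only the +/- genotype, so that the fit separates maternal from zygotic genotype under that assumption. The comparison of +/- embryos below rests on few embryos.

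The promoter windows of the 6 members with 1 window each that passed the test are shown, since these genes moved in the same comparison and a reader may want to compare their sequences. The windows come from RefSeq on GRCm38.p6, run from 250 bases before to 50 bases after the start that RefSeq gives, and are written in the direction of the gene. This start is the same as that of the gene in the count files for Adsl and Umps, lies 37, 150 and 325 bases inside the gene for Gmps, Impdh2 and Dut, and 20 bases before it for Gart, so that the Dut window holds no base upstream of the gene as counted. Capitals mark CACGTG, the E-box bound by factors such as MYC and USF, and CCAAT, the box bound by NF-Y, read on either strand. Of the 40 members, 37 had 45 such windows among the 32851 of the table. The others were Pfas, Dhodh and Rrm2b.
Gart, chr16:91646923-91647222, − strand: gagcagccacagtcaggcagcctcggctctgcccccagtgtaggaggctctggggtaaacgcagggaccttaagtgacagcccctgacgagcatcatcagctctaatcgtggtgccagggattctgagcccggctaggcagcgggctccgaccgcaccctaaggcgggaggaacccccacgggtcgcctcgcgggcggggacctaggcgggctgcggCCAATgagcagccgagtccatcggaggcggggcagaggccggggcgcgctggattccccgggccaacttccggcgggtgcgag
Adsl, chr15:80948240-80948539, + strand: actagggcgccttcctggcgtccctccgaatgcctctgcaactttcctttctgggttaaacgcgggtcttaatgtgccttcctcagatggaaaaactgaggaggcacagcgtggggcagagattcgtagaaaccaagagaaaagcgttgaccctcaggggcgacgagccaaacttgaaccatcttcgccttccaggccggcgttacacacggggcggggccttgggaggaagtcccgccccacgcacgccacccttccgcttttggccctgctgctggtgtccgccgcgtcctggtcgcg
Impdh2, chr9:108560186-108560485, + strand: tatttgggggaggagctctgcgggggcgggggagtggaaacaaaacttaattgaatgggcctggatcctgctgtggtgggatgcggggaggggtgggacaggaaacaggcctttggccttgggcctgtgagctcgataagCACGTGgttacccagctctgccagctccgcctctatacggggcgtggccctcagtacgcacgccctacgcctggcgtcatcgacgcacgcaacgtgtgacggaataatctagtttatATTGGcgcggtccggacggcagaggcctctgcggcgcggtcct
Gmps, chr3:63975893-63976192, + strand: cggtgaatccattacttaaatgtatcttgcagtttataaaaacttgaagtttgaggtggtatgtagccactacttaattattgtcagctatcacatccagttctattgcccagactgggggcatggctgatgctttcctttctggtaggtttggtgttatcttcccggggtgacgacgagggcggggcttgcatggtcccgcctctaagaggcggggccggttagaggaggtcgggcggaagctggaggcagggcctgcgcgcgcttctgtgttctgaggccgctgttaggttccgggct
Umps, chr16:33966989-33967288, − strand: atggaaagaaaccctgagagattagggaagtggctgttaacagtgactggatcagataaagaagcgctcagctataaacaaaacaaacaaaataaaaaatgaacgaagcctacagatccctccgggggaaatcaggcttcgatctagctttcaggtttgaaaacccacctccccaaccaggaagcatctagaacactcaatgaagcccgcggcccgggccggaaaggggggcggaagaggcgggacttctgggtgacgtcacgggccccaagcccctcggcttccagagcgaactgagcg
Dut, chr2:125247265-125247564, + strand: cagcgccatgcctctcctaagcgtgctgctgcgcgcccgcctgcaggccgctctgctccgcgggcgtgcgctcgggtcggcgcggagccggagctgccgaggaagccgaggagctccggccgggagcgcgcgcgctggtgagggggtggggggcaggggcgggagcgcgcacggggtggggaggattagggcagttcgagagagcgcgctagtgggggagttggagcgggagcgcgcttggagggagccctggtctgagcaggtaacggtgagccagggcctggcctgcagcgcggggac

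Impdh2 held CACGTG 110 bases before its RefSeq start, which is within the gene as counted, and the reverse complement of CCAAT beginning 7 bases after it, and Gart held CCAAT 33 bases before its RefSeq start. Neither motif was present in the windows of Adsl, Gmps, Umps and Dut, nor in either of the windows of Impdh1. Across the members, CACGTG was in 7 of 45 windows (15.6%), those of Atic, Dtymk, Impdh2, Nme1, Paics and Tyms, against 7.15% of all windows. CCAAT was in 19 of 45 windows (42.2%), against 37.4% of all. The amino acid response motif TGATGNAA was in the window of Prps1 (2.22% of member windows, 3.97% of all), and the NRF1 motif GCATGCGC was in those of Ctps, Ppat and Shmt2 (6.67%, against 2.71% of all). The E2F motifs TTTCGCGC and TTTGGCGC were in 0 member windows and in 0.323% and 0.514% of all windows. All motifs were searched on both strands, and matches of GCATGCGC to each strand can overlap, as they did in Ctps and Shmt2. The member windows were also richer in CG dinucleotides, with a median of 19 against 7 in all windows. These matches are descriptions of letters within short windows, and no binding was measured.

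De novo purine synthesis opens with Prps1 and Prps2, which make the ribose phosphate donor PRPP, and with Ppat, which commits it to purines. Per base of exon, Prps1 had the highest level of the 40 members, with medians of 1265 RPKM (CPM per kilobase of exon) in Ehmt2Cntr and 943 RPKM in Ehmt2Mat embryos, while Prps2 was at 0.474 and 0.605 RPKM. Per the labels, the amplification biases reads towards the 3′ ends of transcripts, so that such levels per length are approximate. The log2 fold changes were −0.47 (SE 0.23, adjusted p = 0.22) for Prps1 and 0.46 (SE 0.20, adjusted p = 0.152) for Ppat. For Prps2 the fit gave −0.76 (SE 1.03, adjusted p = 0.73), although its median was higher in Ehmt2Mat embryos. None of these genes passed the test. Prps1 and Prps2 lie on chromosome X, as does Ctps2, and Y-linked transcripts were above 1 CPM in 9 of 10 Ehmt2Mat but 5 of 9 Ehmt2Cntr embryos.

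Gart (ENSMUSG00000022962, chromosome 16, 91621186 to 91646952, GRCm38) encodes a trifunctional enzyme of the pathway, which among other steps adds a formyl group carried by folate. It ranged from 44.2 to 180.1 CPM in Ehmt2Cntr embryos (median 129) and from 148 to 411 CPM in Ehmt2Mat embryos (median 204). All 10 Ehmt2Mat embryos lay above the Ehmt2Cntr median and 7 lay above every Ehmt2Cntr embryo. The rise was 1.76-fold (log2 fold change 0.82, SE 0.23, adjusted p = 0.0284). Without Ehmt2Mat embryo 9, the highest, the log2 fold change was 0.67 and the call was lost (adjusted p = 0.0598). Of the exon bases of Gart, 16.9% overlap the opposite-strand gene Gm15964, whose log2 fold change was 0.61 (adjusted p = 0.0793), and since counting used no strand, reads there count for both.

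Adsl (ENSMUSG00000022407, chromosome 15, 80948490 to 80970947) encodes adenylosuccinate lyase, which acts both late in the synthesis of IMP and in the step from adenylosuccinate to AMP. It was the member with the clearest separation. Ehmt2Cntr embryos lay between 57.2 and 104 CPM (median 80.3) and Ehmt2Mat embryos between 105 and 172 CPM (median 129.7), so that the groups did not overlap, although the gap between them was narrow. Of all tested genes, 0.34% had every Ehmt2Mat embryo above every Ehmt2Cntr embryo and 0.179% the reverse, and the groups overlapped in the other 38 tested members. Adsl rose 1.61-fold (log2 fold change 0.69, SE 0.16, adjusted p = 0.00888) and kept an adjusted p of at most 0.0203 whichever embryo was left out.

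The remaining enzymes of IMP synthesis did not pass the test, and whether they differed from Gart and Adsl was not tested. Paics, a bifunctional enzyme upstream of Adsl, was among the closest to no difference, with medians of 759 CPM in Ehmt2Cntr and 782 CPM in Ehmt2Mat embryos and a log2 fold change of −0.06 (SE 0.16). Paics and Ppat are transcribed in opposite directions from starts 276 bases apart, and share 272 exon bases in the annotation. Pfas was low, at medians of 9.15 and 11.0 CPM, with a log2 fold change of 0.69 (SE 0.40, adjusted p = 0.31). Atic, which performs the last steps to IMP, was also low and pointed the other way. It ranged from 3.08 to 35.0 CPM in Ehmt2Cntr embryos (median 8.99) and from 1.48 to 8.88 CPM in Ehmt2Mat embryos (median 4.61), all of which lay below the Ehmt2Cntr median. Its log2 fold change of −1.39 (SE 0.52) did not pass edgeR's test (adjusted p = 0.0961) but did with at least 10 counts required per embryo (adjusted p = 0.0343) and in DESeq2 (adjusted p = 0.0393).

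**Figure D2:**
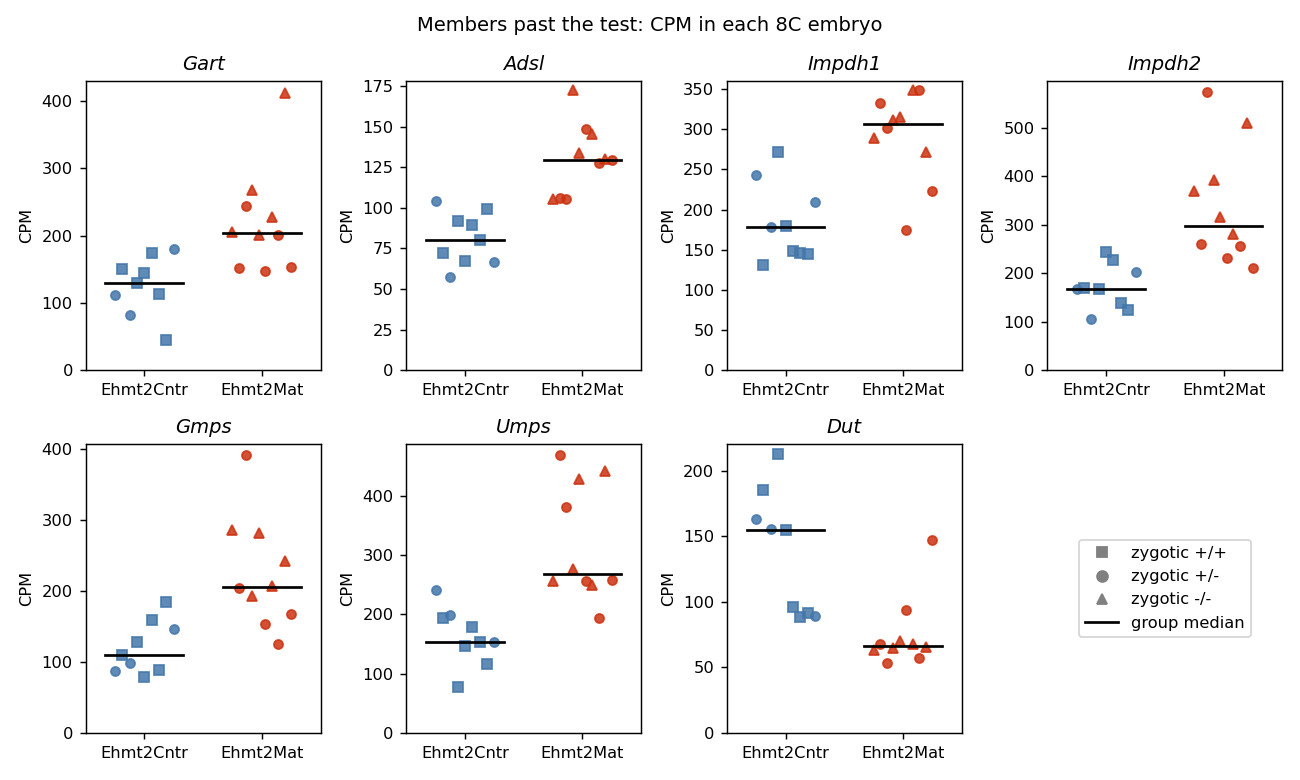
CPM of the 7 members that passed the test, with 1 point per embryo, symbols for the zygotic genotype and black lines for group medians. For Adsl the lowest Ehmt2Mat embryo (105 CPM) lies above the highest Ehmt2Cntr embryo (104 CPM), while the groups overlap for the other 6 genes.

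At the branch point after IMP, 3 of the 5 tested members grouped here rose, as did 4.37% of all tested genes, and all 3 act towards GMP. The other 2, Adss and Guk1, had log2 fold changes below 0 and did not pass the test. Adsl, which also acts in the step to AMP, was grouped with IMP synthesis above, and it rose too, so the rise was not confined to the GMP side. Impdh1 and Impdh2 encode the isozymes of IMP dehydrogenase, the rate-limiting step to guanine nucleotides, and Gmps encodes GMP synthetase, which completes it. Impdh2 (ENSMUSG00000062867, chromosome 9, 108560286 to 108565584) ranged from 105 to 245 CPM in Ehmt2Cntr embryos (median 168.5) and from 212 to 573 CPM in Ehmt2Mat embryos (median 298). Only the upper Ehmt2Cntr embryos reached the range of Ehmt2Mat, and 7 of 9 lay below every Ehmt2Mat embryo. Impdh2 rose 1.98-fold (log2 fold change 0.99, SE 0.21, adjusted p = 0.00422).

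Impdh1 (ENSMUSG00000003500, chromosome 6, 29200434 to 29216364) lay between 131 and 272 CPM in Ehmt2Cntr (median 178) and between 174 and 349 CPM in Ehmt2Mat embryos (median 307). It rose 1.59-fold (log2 fold change 0.67, SE 0.17, adjusted p = 0.0151), with 9 of 10 Ehmt2Mat embryos above the Ehmt2Cntr median. Gmps (ENSMUSG00000027823, chromosome 3, 63976106 to 64022579) lay between 78.5 and 185 CPM in Ehmt2Cntr (median 109) and between 125 and 391 CPM in Ehmt2Mat embryos (median 205). It rose 1.87-fold (log2 fold change 0.91, SE 0.21, adjusted p = 0.00902), with 7 of 10 Ehmt2Mat embryos above every Ehmt2Cntr embryo. Of the 50-base windows of Impdh2 transcripts, 39.3% also match the pseudogene Impdh2-ps, against 4.12% of those of Gmps that match another gene and 0 of Impdh1, so the level of Impdh2 is the least certain of the 3.

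Both IMP dehydrogenases rose. Impdh2 made up 37.1 to 60.4% of their summed CPM in Ehmt2Cntr embryos (median 48.7%) and 42.4 to 65.5% in Ehmt2Mat embryos (median 52.9%), and 8 of 10 Ehmt2Mat embryos lay within the range of the Ehmt2Cntr embryos. Adss and Guk1, next to these steps, did not pass the test, whereas Adsl, which follows Adss towards AMP, did. Adss, adenylosuccinate synthase, which leads from IMP towards AMP, had medians of 149 CPM in Ehmt2Cntr and 116 CPM in Ehmt2Mat embryos (log2 fold change −0.58, SE 0.30, adjusted p = 0.247). Guk1, guanylate kinase, which takes GMP to GDP, had medians of 74.3 and 55.7 CPM (log2 fold change −0.54, SE 0.24, adjusted p = 0.168).

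In pyrimidine synthesis, Umps was the only 1 of 8 members to pass the test, which 9.35% of all tested genes passed. It encodes UMP synthase, the bifunctional enzyme that joins the ring to ribose phosphate and forms UMP. Umps (ENSMUSG00000022814, chromosome 16, 33954782 to 33967038) ranged from 77.8 to 241 CPM in Ehmt2Cntr embryos (median 153) and from 195 to 468 CPM in Ehmt2Mat embryos (median 268), and 9 of 10 Ehmt2Mat embryos lay above every Ehmt2Cntr embryo. It rose 1.98-fold (log2 fold change 0.98, SE 0.21, adjusted p = 0.00423). An opposite-strand gene, Gm15829, covers 6.11% of its exon bases and was also higher (log2 fold change 2.95, adjusted p = 0.00715), but held 1061 counts over all embryos against 81589 for Umps.

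Upstream of Umps, Cad, which carries the first activities of the pathway, and Dhodh, its mitochondrial step, had log2 fold changes of 0.30 (SE 0.20) and 0.25 (SE 0.41). Downstream, the CTP synthases Ctps and Ctps2 had 0.38 (SE 0.20) and −0.17 (SE 0.43), and the UMP/CMP kinase Cmpk1 had 0.46 (SE 0.28), with adjusted p-values between 0.259 and 0.873 for these 5 genes. The nucleoside diphosphate kinases Nme1 and Nme2, which refill the triphosphates, lie next to each other on chromosome 11 and had fold changes of opposite sign. Nme2 had medians of 439 CPM in Ehmt2Cntr and 682 CPM in Ehmt2Mat embryos (log2 fold change 0.54, SE 0.19, adjusted p = 0.0726), and Nme1 had medians of 553 and 416 CPM (log2 fold change −0.46, SE 0.21, adjusted p = 0.187). Neither passed edgeR's test on all 19 embryos. Nme2 passed it with at least 10 counts required per embryo (adjusted p = 0.045), without Ehmt2Cntr 7 or without Ehmt2Mat 2 (the lowest adjusted p, 0.0276), and passed DESeq2's (adjusted p = 0.0386).

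The share of Nme2 in the summed CPM of the pair was 35.5 to 58.6% in Ehmt2Cntr embryos (median 45.1%) and 56.8 to 65.6% in Ehmt2Mat embryos (median 61.3%). Of the 9 Ehmt2Cntr embryos, only embryo 10 lay within the range of Ehmt2Mat, the next highest was at 50.8%, and 3 of 10 Ehmt2Mat embryos lay within the range of Ehmt2Cntr. Per exon length the medians were 70.1% and 81.9%. The share was chosen for description and not tested. Of the exon bases of Nme2, 48.9% belong also to the readthrough gene Gm20390, and 47.0% of its 50-base windows match another gene, so that its counts are uncertain.

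**Figure D3:**
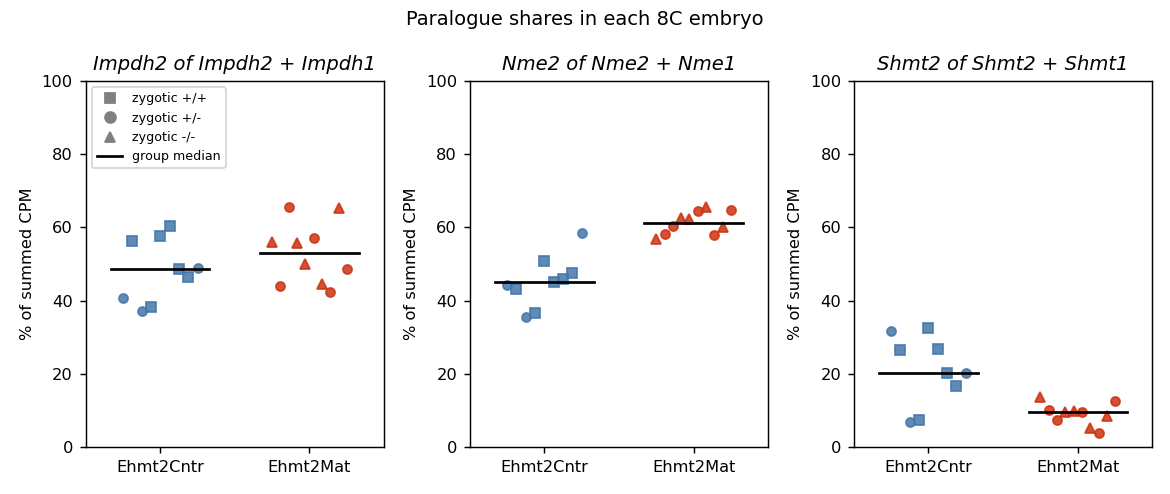
Share of Impdh2, Nme2 and Shmt2 in the CPM summed with Impdh1, Nme1 and Shmt1, in percent, with 1 point per embryo and black lines for group medians. The medians are 48.7% and 52.9% for Impdh2, 45.1% and 61.3% for Nme2 and 20.1% and 9.46% for Shmt2 in Ehmt2Cntr and Ehmt2Mat embryos.

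Among the 7 members that make deoxynucleotides, Dut was the only one of the 40 that edgeR called lower. It encodes dUTPase, which converts dUTP into dUMP, and so both supplies thymidylate synthesis and keeps uracil out of DNA. Dut (ENSMUSG00000027203, chromosome 2, 125247190 to 125258608) ranged from 88.3 to 213 CPM in Ehmt2Cntr embryos (median 155) and from 53.3 to 147 CPM in Ehmt2Mat embryos (median 66.6). Ehmt2Cntr embryos 7 to 10 lay between 88.3 and 95.9 CPM and the other 5 between 155 and 213 CPM, and 8 of 10 Ehmt2Mat embryos were below all of them. The log2 fold change was −0.87 (SE 0.22, adjusted p = 0.0144), a level 0.546 times that of Ehmt2Cntr, and the adjusted p stayed at or below 0.0336 whichever embryo was left out. No window of its transcripts matched another gene.

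Of the subunits of ribonucleotide reductase none passed the test. Rrm1, the large subunit, had medians of 214 and 252 CPM (log2 fold change 0.05, SE 0.17), and Rrm2, the small subunit used in S phase, had 387 and 405 CPM (0.09, SE 0.18). Rrm2b, the alternative small subunit that p53 induces, was at medians of 11.3 and 16.5 CPM (0.84, SE 0.59, adjusted p = 0.424), and 1 embryo, Ehmt2Mat 10, reached 84.3 CPM. Thymidylate synthase Tyms, thymidylate kinase Dtymk and thymidine kinase Tk1 had log2 fold changes of −0.31 (SE 0.20), 0.09 (SE 0.19) and 0.15 (SE 0.20), with adjusted p-values of at least 0.393.

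None of the 8 members of serine synthesis and folate metabolism passed edgeR's test, and 2 had an unadjusted p under 0.05, as did 23.3% of all tested genes. The smallest p belonged to Psph, the phosphatase that completes serine synthesis. It ranged from 30.9 to 85.0 CPM in Ehmt2Cntr embryos (median 58.9) and from 10.7 to 57.1 CPM in Ehmt2Mat embryos (median 34.8), and all 10 Ehmt2Mat embryos lay below the Ehmt2Cntr median. The log2 fold change was −0.73 (SE 0.27, adjusted p = 0.0882), and in DESeq2 the adjusted p was 0.0485. Psph shares 10.4% of its exon bases with Cct6a on the opposite strand, which held 253797 counts against 16059 for Psph, and reads there count for both. The log2 fold change of Cct6a was −0.31 (adjusted p = 0.256). The enzymes before Psph, Phgdh and Psat1, had log2 fold changes of 0.25 (SE 0.21) and −0.27 (SE 0.17). Of the 50-base windows of Phgdh, 47.8% match another gene, so its level is uncertain.

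Serine hydroxymethyltransferase passes the carbon of serine to folate, in the cytosol through Shmt1 and in mitochondria through Shmt2. Shmt1 had medians of 133 and 147 CPM (log2 fold change 0.50, SE 0.26, adjusted p = 0.243), and Shmt2 had 36.2 and 15.9 CPM (−0.93, SE 0.44, adjusted p = 0.199). Shmt2 took 6.89 to 32.6% of the summed CPM of the pair in Ehmt2Cntr embryos (median 20.1%) and 3.85 to 13.7% in Ehmt2Mat embryos (median 9.46%), with 8 of 10 Ehmt2Mat embryos within the range of Ehmt2Cntr and 2 of 9 Ehmt2Cntr embryos within that of Ehmt2Mat. The folate enzymes Mthfd1 of the cytosol, and Mthfd1l and Mthfd2 of mitochondria, had log2 fold changes of 0.35 (SE 0.19), 0.15 (SE 0.74) and −0.41 (SE 0.39). The sign of Mthfd1l rested on Ehmt2Mat embryo 3, without which it was −0.69.

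In the S-adenosylmethionine cycle 0 of 3 members passed the test, and none had an unadjusted p under 0.05 (23.3% of all genes). The smallest p belonged to Ahcy, which clears S-adenosylhomocysteine, the product that inhibits methyltransferases. Ahcy was low, at 1.12 to 14.0 CPM in Ehmt2Cntr embryos (median 3.79) and 0.894 to 5.94 CPM in Ehmt2Mat embryos (median 2.05), with a log2 fold change of −1.01 (SE 0.59, adjusted p = 0.317). Of its 50-base windows 68.7% match another gene, so its level is uncertain. Mat2a, the catalytic subunit of the enzyme that makes S-adenosylmethionine, was abundant, with medians of 1617 and 1146 CPM (log2 fold change −0.31, SE 0.20, adjusted p = 0.386). Its regulatory subunit Mat2b had medians of 302 and 305 CPM (0.15, SE 0.22). Of the windows of Mat2a, 14.2% match another gene.

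The paralogue pairs not yet described were each dominated by 1 gene in both groups. The median share of the minor gene in Ehmt2Cntr and Ehmt2Mat embryos was 0.0439% and 0.0953% for Prps2 with Prps1, 0 and 0.154% for Adssl1 with Adss, 7.64% and 5.01% for Ctps2 with Ctps, 2.54% and 3.82% for Rrm2b with Rrm2, and 3.68% and 2.31% for Mthfd1l with Mthfd1. Prps1 also shares 9.93% of its windows with Prps1l3.

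**Figure D4:**
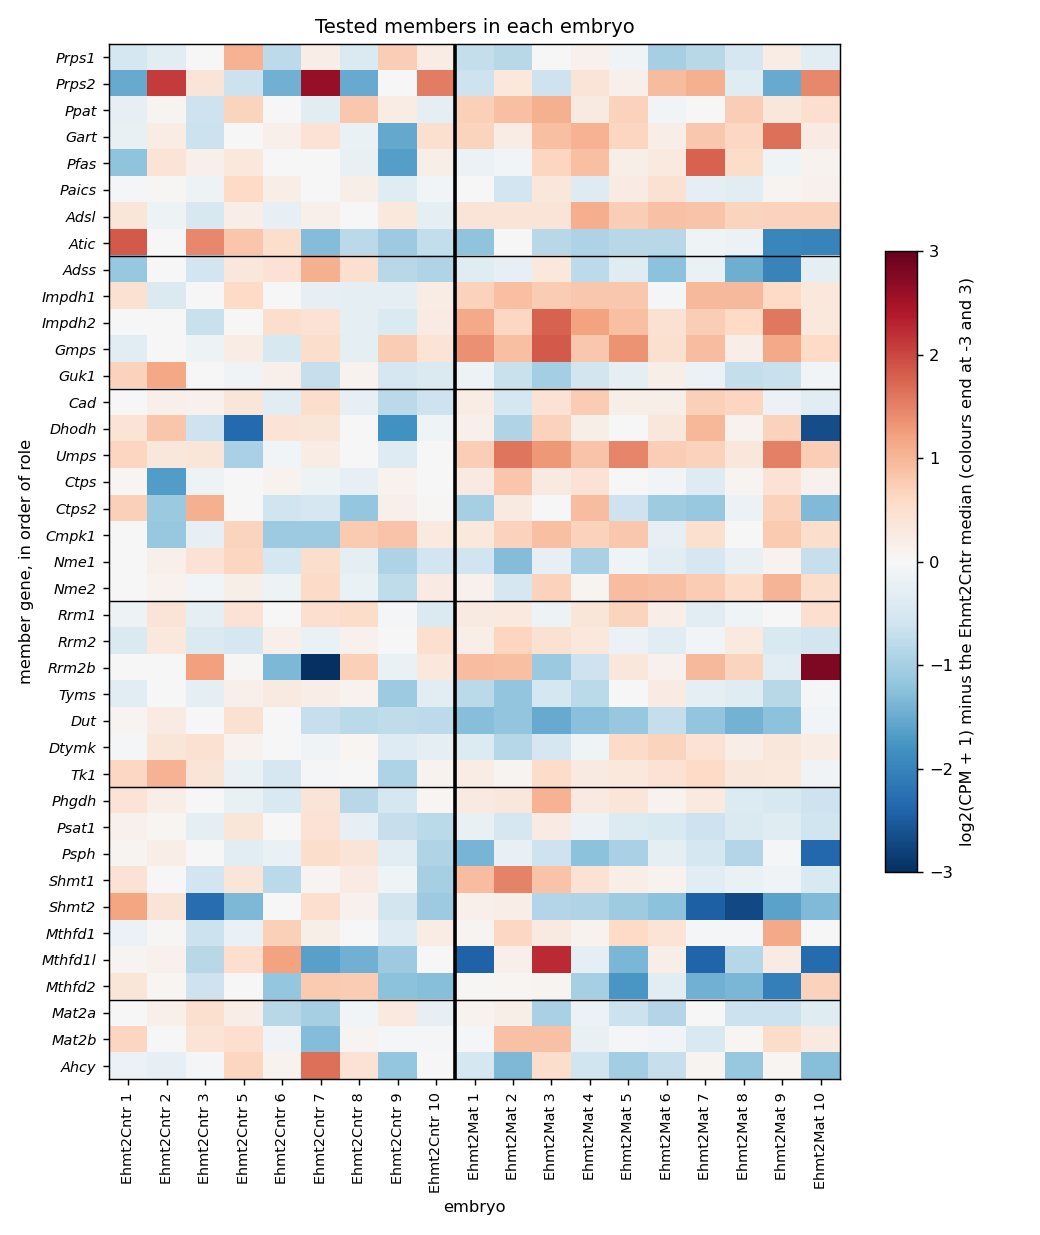
Log2(CPM + 1) of the 39 tested members in each of the 19 embryos, minus the Ehmt2Cntr median of the gene, in order of role, with Ehmt2Cntr embryos left and Ehmt2Mat embryos right of the thick line and colours ending at −3 and 3. Gart, Adsl, Impdh2, Gmps and Umps are above the median in all 10 Ehmt2Mat embryos, and Atic, Dut and Psph are below it in all 10. Rows of low genes such as Prps2 and Mthfd1l vary within both groups.

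The Ehmt2Mat embryos were not alike in the 6 members that rose. In 5 embryos all 6 members lay above every Ehmt2Cntr embryo, in 2 embryos 5 of them did, in 1 embryo 4, and in Ehmt2Mat embryos 6 and 10, both zygotically +/-, 2 of them. Ehmt2Mat 10 also had the highest Dut value of its group, 147 CPM. These counts describe genes chosen by the same comparison and were not tested.

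To ask whether a functional zygotic copy of Ehmt2 moved these genes in maternally depleted embryos, the 5 -/- Ehmt2Mat embryos were compared with the 5 +/- Ehmt2Mat embryos. Of 12195 genes tested, 0.0% passed, and so did 0 of the 39 members tested, of which 2 had an unadjusted p under 0.05 (2.21% of all genes). DESeq2 called 0 members and 3 genes. The members' median log2 fold change was 0.07, against −0.04 over all genes. Gart had 201 to 411 CPM (median 227) in -/- and 148 to 244 CPM (median 153) in +/- embryos, and Dut 63.0 to 69.7 CPM (median 65.7) and 53.3 to 147 CPM (median 67.5), so that the ranges overlapped for both. The log2 fold changes of the 7 members that passed the main test lay between −0.34 (SE 0.30) for Dut and 0.55 (SE 0.25) for Gart, with adjusted p-values of 0.9997.

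The maternal genotype was also compared with the zygotic genotype held at +/-, in 5 Ehmt2Mat and 3 Ehmt2Cntr embryos that were part of the first comparison as well. Here 0.00746% of 13401 genes passed, 1 gene, and 0 of 39 members, of which 4 had an unadjusted p under 0.05 (6.76% of all genes). DESeq2 called 0 members and 79 genes. The 7 members had log2 fold changes of 0.93 (SE 0.39) for Impdh2, 0.88 (SE 0.40) for Gmps, 0.68 (SE 0.32) for Adsl, 0.64 (SE 0.33) for Umps, 0.50 (SE 0.34) for Gart, 0.37 (SE 0.31) for Impdh1 and −0.71 (SE 0.39) for Dut. Their adjusted p-values lay between 0.683 and 0.951. These embryos are shared with the first comparison and give no separate evidence.

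Of 88 other genes of the same pathways, 69 were tested, and 2 were higher (2.9%) and 8 lower (11.6%) in Ehmt2Mat embryos. Their median log2 fold change was 0.01. The shares over all tested genes were 4.37% higher and 4.98% lower, and the counts per list below rest on few genes each. Lower were Uck2 and Dctpp1 of 14 tested salvage genes, Ak4, Nme4 and Prpsap2 of 12 other kinases and related genes, Nt5c3 and Nt5c3b of 12 breakdown genes, and Sms, spermine synthase, of 15 methionine and polyamine genes. Sms lies on chromosome X, and its call was not examined with sex as a covariate, although Y-linked transcripts were more frequent among Ehmt2Mat embryos. Nt5c3, a pyrimidine nucleotidase, ranged from 19.3 to 72.4 CPM in Ehmt2Cntr embryos (median 46.9) and from 6.81 to 24.6 CPM in Ehmt2Mat embryos (median 11.0), with 9 of 10 below every Ehmt2Cntr embryo (log2 fold change −1.83, SE 0.32, adjusted p = 0.00102). Dctpp1, which hydrolyses dCTP and modified cytosine nucleotides, ranged from 21.8 to 125.8 CPM and from 7.15 to 26.1 CPM (medians 30.0 and 11.5, log2 fold change −1.71, SE 0.37, adjusted p = 0.00464). Nme4, the mitochondrial nucleoside diphosphate kinase, had medians of 28.4 and 9.94 CPM (−1.53, SE 0.37, adjusted p = 0.00996).

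The other genes that fell had smaller or less stable differences, with log2 fold changes of −1.06 for Ak4, −1.02 for Sms, −0.77 for Uck2, −0.66 for Nt5c3b and −0.59 for Prpsap2. Higher were Gcsh, the carrier protein of the glycine cleavage system, with medians of 1888 and 2556 CPM (log2 fold change 0.48, SE 0.14, adjusted p = 0.0291), and Ak3, a mitochondrial adenylate kinase that uses GTP, which was at 0 to 1.69 CPM in Ehmt2Cntr and 0.0659 to 50.2 CPM in Ehmt2Mat embryos (adjusted p = 0.0299). The call of Ak3 was lost without Ehmt2Cntr 7 or Ehmt2Mat 3, that of Uck2 without Ehmt2Cntr 3, that of Gcsh without Ehmt2Cntr 6, Ehmt2Cntr 7 or Ehmt2Mat 5, that of Nt5c3b without any of 7 embryos and that of Prpsap2 without any of 10 embryos, with adjusted p-values of at most 0.092.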

How the data were processed

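RNA of single 8C embryos was measured in 9 Ehmt2Cntr and 10 Ehmt2Mat embryos, grouped by the labels. Ehmt2Cntr embryo 4 was not analysed here. The counts the authors deposited are raw, giving for each embryo how many 50-base single-end reads fell on each of 34937 genes. Per the file headers, featureCounts 1.5.0 counted reads on exons of Ensembl release 82 (GRCm38) with an overlap of at least 10 bases, for every gene overlapped, with multi-mapping reads kept and no strand. The aligner is not given in the headers. The methods name Tophat2 for genes and bowtie, with uniquely mapping reads, for transposable elements, and the alignment names in the headers carry the tag m1, so that it is unclear whether reads in sequence shared between genes were counted or dropped. Symbols were matched for 34599 genes.

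From these counts, edgeR 4.0.16 in R 4.3.3 was run with its filter on low counts, TMM and the quasi-likelihood test without covariates, with Benjamini-Hochberg adjustment over all tested genes and a threshold of 0.05, and SE was derived from the F statistic. All adjusted p-values are from edgeR unless DESeq2 1.42.0 is named. CPM used TMM-scaled library sizes, and 3 counts are worth 0.098 to 0.364 CPM. The lowest count of any of the 7 called members in any embryo was 440. The members and lists were chosen with earlier results of these data known. All members are accounted for, and values over the embryos are given for those past the test and, in each role without one, for the member with the smallest p; Atic, Nme2 and other members with full values were named besides. Of 88 other pathway genes those past the test are named. No 2 embryos held the same counts, and p-values measure the spread between single embryos. Alternatives were other normalizations, DESeq2, other filters, an embryo number block, sex, zygotic genotype, thinning, a fold threshold and each embryo left out.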

Additional observations from a re-analysis of the deposited data

Results flagged for a closer look

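Values of log2(CPM + 1) were searched for embryos that stand apart, in the 78 sets of values of the 39 tested members in each group, by the gap to the nearest other embryo as a share of the whole range. Chance flags about 1 in 20 such sets, and 6 were found. Ehmt2Cntr 2 had the lowest Ctps value (49.5 CPM against 135 to 173 CPM in the others), a gap of 0.802 of the range. Ehmt2Cntr 7 was lowest for Mat2b (122 against 279 to 470.3 CPM), a gap of 0.614. Ehmt2Cntr 9 was lowest for Tyms (84.7 against 142 to 219.9 CPM), a gap of 0.542. Ehmt2Mat 3 was highest for Psat1 (2908 against 1611 to 2172 CPM), a gap of 0.494. Ehmt2Mat 10 was lowest for Dhodh (4.18 against 16.6 to 64.2 CPM), a gap of 0.483, and highest for Rrm2b (84.3 against 4.73 to 23.2 CPM), a gap of 0.4661. None of these 6 members passed the test between the groups, and the cause of these values was not tested.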

How the results depend on the processing

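The number of members called stayed at 7 with RLE or upper quartile normalization (9.44% and 9.36% of all genes called) and without mitochondrial genes (9.41%). The same held without a filter (5.67%) and with thinned counts (10.2%). The number also stayed at 7 with sex as a covariate at the limits of 1 CPM (9.94%) and 10 CPM (10.4%, a limit chosen after seeing the data). It was 10 with DESeq2 (7 higher and 3 lower, with 16.0% of the 11070 genes that had an adjusted p). Where a minimum of 10 counts was asked of each embryo, it was 9 of 36 tested, with 19.2% of 7154 genes called. It was 6 to 8 with each embryo left out, with 7.5 to 10.8% of all genes called. It was 0 where calls also had to reach 1 in absolute log2 fold change, since none did (667 of all genes did), and 0 with zygotic genotype as a covariate. No sign that the numbers pair the embryos was seen: the correlations of deviations in 9 same-number pairs lay between −0.156 and 0.0856, and 0 Ehmt2Cntr embryos correlated best with their own number. So few pairs of single embryos cannot exclude a pairing. With the number as a replicate block, on the 18 embryos whose number both groups have, 3 members (Impdh2, Gmps and Umps) and 5 other pathway genes were called, of 693 genes in all (6.05%). The other pathway genes called numbered 10 (with 9.35% of all genes called), 12 with DESeq2 (16.0%) and 6 to 10 with each embryo left out (7.5 to 10.8%). They numbered 6 without Ehmt2Cntr 7 (7.5%). These genes were not examined with sex or zygotic genotype as a covariate, so their stability to either is not known. Per exon length the median share was 29.8% and 15.0% for Shmt2 and 70.1% and 81.9% for Nme2. Log2 fold changes that changed sign, none of them called, were 0.42 for Prps2 and −0.83 for Mthfd1l with the replicate block. With sex as a covariate they were 0.14 (0.013 at the 10 CPM limit) for Ctps2 and −0.043 for Rrm1. With zygotic genotype as a covariate they were 0.13 for Paics, 0.24 for Adss, −0.15 for Dhodh, 0.0016 for Tyms, −0.051 for Dtymk, −0.072 for Tk1 and 0.41 for Mthfd2. With each embryo left out they ranged from −0.37 to 0.055 for Ctps2 (above 0 without Ehmt2Cntr 3), from −0.12 to 0.020 for Paics (above 0 without Ehmt2Cntr 5), from −0.011 to 0.11 for Rrm1 (below 0 without Ehmt2Mat 5 or Ehmt2Cntr 10) and from −0.69 to 0.51 for Mthfd1l (below 0 without Ehmt2Mat 3). The 7 called members kept their sign under all alternatives run, and the cause of lost calls was not tested. In the comparisons of zygotic genotypes within Ehmt2Mat and of +/- embryos, 0 members were called under each alternative run. Ehmt2 was called under none, with log2 fold changes from −0.56 to −0.32.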

Other observations

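Per exon length, 3 of the 40 members had an Ehmt2Cntr median above 500 RPKM (Prps1 at 1265, Psat1 at 580.1 and Mat2a at 577 RPKM), and 7 were under 2 RPKM. The low ones were Prps2, Pfas, Atic, Adssl1, Rrm2b, Mthfd1l and Ahcy. In Ehmt2Mat embryos the medians of Prps1, Psat1 and Mat2a were 943, 434 and 409 RPKM.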
